A study of Homo sapiens with 12 samples.

Results

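The 10 genes described here encode 3 cadherins (CDH1, CDH2 and CDH3), the filament protein vimentin (VIM) and 6 transcription factors of epithelial-mesenchymal transition (ZEB1, ZEB2, SNAI1, SNAI2, TWIST1 and FOXC2). They were taken by their current gene symbols, and all 10 were measured among the 19775 genes on the arrays. The samples were FG and L3.6pl, human pancreatic carcinoma lines with unlike metastatic potential according to the title of the series. They formed 4 groups of 3 Affymetrix arrays, 12 in all: L3.6pl hypoxia, L3.6pl normoxia, FG hypoxia and FG normoxia. All cultures were started from frozen stock without passaging and grown, typically for 9 days, in serum-containing medium, and the hypoxic cultures spent their last 24 h at 1% oxygen. No transgene or drug is named in the labels. L3.6pl was derived by passage of pancreatic tumour cells through mice and is known as the more metastatic line, and each side of a comparison between the lines is a single line.

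E-cadherin, the product of CDH1, joins epithelial cells to each other through its extracellular repeats and is anchored inside the cell by catenins. In epithelial-mesenchymal transition, cells lose E-cadherin and gain N-cadherin (CDH2) and vimentin, and they become more motile. The zinc finger proteins ZEB1, ZEB2, SNAI1 and SNAI2 bind E-box sequences in the CDH1 promoter and repress it, while TWIST1, a basic helix-loop-helix protein, and FOXC2, a forkhead protein, are known to promote the mesenchymal state. Hypoxia is known as an inducer of this transition in several carcinomas, in part through hypoxia-inducible factors that bind DNA at hypoxia response elements.

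RefSeq promoter sequences (build GRCh38.p14) were at hand for 4 of the 10 genes: VIM, ZEB2, ZEB1 with 7 start sites and CDH2 with 2. CDH1, CDH3, SNAI1, SNAI2, TWIST1 and FOXC2 had no entry. In the 250 bases before each start, ACGTG, the core of the hypoxia response element, and CACCTG, an E-box bound by Snail and ZEB proteins, were searched on both strands. ACGTG was held by 18.5% and CACCTG by 17.5% of 35116 promoter windows. Their letters cannot overlap each other, while ACGTG overlaps its own reverse in CACGTG. Of the 7 ZEB1 windows, some held CACCTG alone, another held ACGTG alone, the rest held no match and none held both. CDH2 windows held neither motif. The promoters of VIM, a high transcript with no match, and of ZEB2, a transcript near background with 2 matches of ACGTG, are shown because they mark these ends. VIM lies at chr10:17227991-17228240 on the plus strand and ZEB2 at chr2:144520120-144520369 on the minus strand, both written 5′ to 3′ along the gene's own strand. Capitals mark ACGTG read on the opposite strand (CACGT), which begins at -188 and -51 relative to the ZEB2 start.
VIM: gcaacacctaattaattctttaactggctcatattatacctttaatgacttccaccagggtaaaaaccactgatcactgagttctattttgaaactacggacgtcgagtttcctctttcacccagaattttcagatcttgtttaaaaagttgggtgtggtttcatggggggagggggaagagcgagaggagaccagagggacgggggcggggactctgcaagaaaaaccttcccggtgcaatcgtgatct
ZEB2: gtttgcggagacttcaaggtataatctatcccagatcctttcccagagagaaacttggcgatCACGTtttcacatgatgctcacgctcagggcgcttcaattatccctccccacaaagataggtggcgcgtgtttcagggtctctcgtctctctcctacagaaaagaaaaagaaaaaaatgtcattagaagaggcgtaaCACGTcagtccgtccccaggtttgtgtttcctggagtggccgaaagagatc
A match describes these letters only, and none of the data here measured binding.

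The deposited intensities had been normalized with RMA, per the submitters' processing notes, and are given here as log2 intensity. A gene with several probe sets is represented by the one with the highest mean over the 12 arrays, and its other probe sets are given beside it. A gene is called where limma's Benjamini-Hochberg adjusted p, over all 19775 genes, was below 0.05. Errors of group means are SDs over 3 arrays and those of log2 fold changes are standard errors of the limma model. The labels do not say that the 3 arrays of a group hold RNA of separate cultures, so p-values measure the spread between arrays, which may be technical. The arrays were made from RNA of whole cultures, so a change in every cell and a change in the share of cells that express a gene cannot be told apart.

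Within a group, Pearson's r between arrays was 0.974 to 0.996 (across genes, which are no replicates). Replicate 1 of both normoxia groups and replicate 3 of L3.6pl hypoxia stand apart, and their control probe sets for the 3′ end of ACTB exceeded those for its 5′ end by 0.874 to 1.34 on the log2 scale, against 0.340 to 0.714 on the other 9 arrays. For GAPDH the same measure was 0.0129 on FG normoxia replicate 1, -0.0934 on L3.6pl normoxia replicate 1 and -0.0321 on L3.6pl hypoxia replicate 3. On the other 9 arrays it was -0.185 to -0.120. Whether the RNA quality of the 3 arrays differed, and its part in the results, was not tested. Calls of the 10 genes and counts of the further gene lists that change without the 3 arrays are also given without them. Of 12 known targets of hypoxia-inducible factors, 10 rose in L3.6pl and 11 in FG, or 12 in each without the 3 arrays. Their mean log2 intensity was 10.94 to 11.70 on hypoxia arrays and 8.68 to 9.47 on normoxia arrays. All 9 measured epithelial markers, CDH1 among them, were above background on every array, with a mean log2 intensity of 10.36 to 11.21. Of 11 fibroblast markers, 3 were above background in some group (COL1A1, COL3A1 and PDPN), and the mean of all 11 was 5.16 to 5.45 on L3.6pl arrays and 5.58 to 5.80 on FG arrays. COL3A1 averaged 5.69 in L3.6pl hypoxia and 5.60 in L3.6pl normoxia, against 10.63 in FG hypoxia and 11.02 in FG normoxia. The part of these markers in the line differences was not tested. Of 10 blood and endothelial markers 4 were above background in some group, and their mean was 4.88 to 5.10.

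Of the 10 genes, 7 lay above background in all 4 groups, and CDH2, ZEB2 and SNAI1 lay near it in all 4. Background was taken as a log2 intensity of 5.83, the 90th percentile over 85 probe sets of genes restricted to lineages such as retina, testis and muscle. By the same measure, 39.8% of all genes were near background in all 4 groups. With the 75th percentile, 5.37, ZEB2 alone remained below the level in all 4 groups. The mean of the non-human control probe sets was higher (log2 6.8), and whether it measures background was not tested. ZEB1 also lay below that mean in all 4 groups, TWIST1 in 2 and FOXC2 in 1, L3.6pl normoxia. The 10 genes had 21 probe sets that match a single gene, of which 12 were below 5.83 in all 4 groups. CDH3, SNAI1, SNAI2 and TWIST1 had 1 probe set each.

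**Figure D1:**
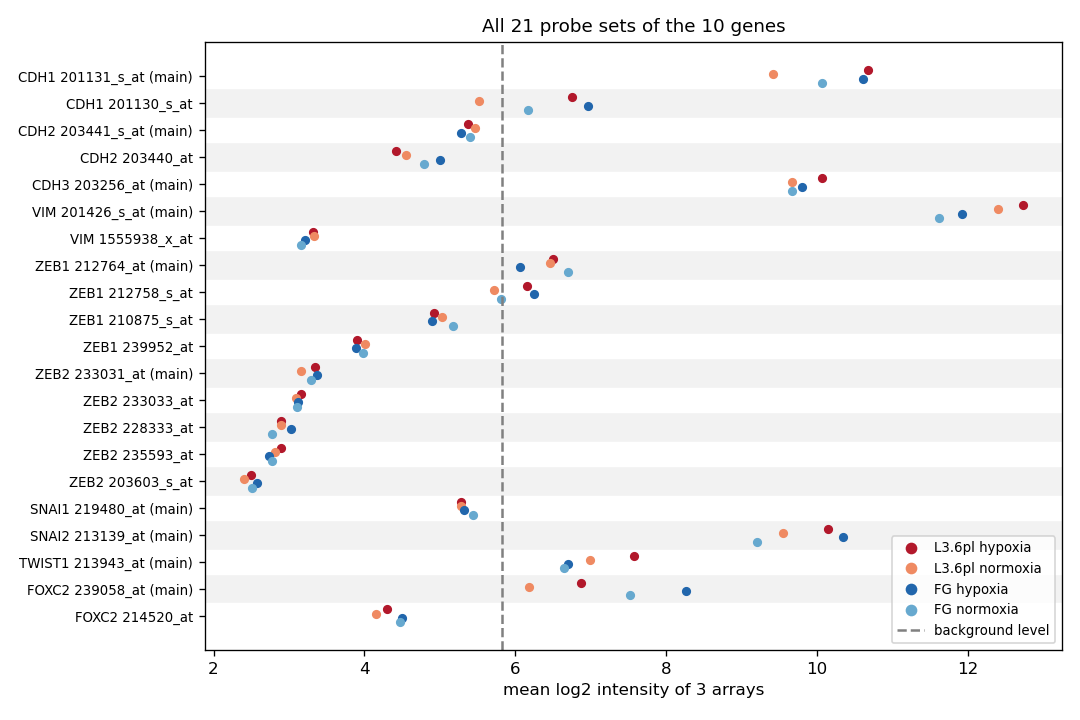
Mean log2 intensity over 3 arrays (horizontal axis) of every probe set of the 10 genes in the 4 groups, with the background level of 5.83 drawn as a line. Of the 21 probe sets, 12 lie under the line in all 4 groups, among them every probe set of CDH2, ZEB2 and SNAI1 and 1 of the 2 probe sets of FOXC2 and of VIM.

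N-cadherin, the cadherin gained in a cadherin switch, was not measurably above background. CDH2 probe set 203441_s_at had 5.43, 5.18 and 5.51 in L3.6pl hypoxia and 5.39, 5.37 and 5.62 in L3.6pl normoxia. It had 5.04, 5.19 and 5.60 in FG hypoxia and 5.40, 5.29 and 5.52 in FG normoxia. All 4 groups overlapped, and 84.5% of the gene's variance lay within groups. ZEB2, whose product binds paired E-boxes, had 5 probe sets, all under the background level. Its main probe set 233031_at had 3.28, 3.34 and 3.43 in L3.6pl hypoxia, against 3.11, 3.22 and 3.15 in L3.6pl normoxia. It had 3.30, 3.57 and 3.26 in FG hypoxia, against 3.28, 3.39 and 3.22 in FG normoxia. The L3.6pl groups did not overlap, but at this level no difference was called (adjusted p = 0.314). SNAI1, the founding Snail factor, had 5.20, 5.31 and 5.34 in L3.6pl hypoxia and 5.15, 5.28 and 5.41 in L3.6pl normoxia. It had 5.37, 5.23 and 5.36 in FG hypoxia and 5.43, 5.32 and 5.57 in FG normoxia, and the groups of each line overlapped. At these intensities a difference between groups was not detectable, which does not show that these transcripts were absent.

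CDH1 was the member with the largest hypoxia change in L3.6pl. Its main probe set 201131_s_at had 10.75, 11.05 and 10.24 in L3.6pl hypoxia, against 9.98, 9.18 and 9.09 in L3.6pl normoxia. In FG it had 10.47, 10.98 and 10.39 in hypoxia, against 10.63, 9.75 and 9.82 in normoxia. The L3.6pl groups did not overlap, while FG normoxia replicate 1 lay among the FG hypoxia arrays. CDH1 rose in L3.6pl hypoxia by 1.26 ± 0.313, a 2.39-fold change (adjusted p = 0.0375 with limma, 95% interval 0.57 to 1.95). In FG the difference was 0.55 ± 0.313, which did not pass (adjusted p = 0.340).

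Leaving out 1 array ended the CDH1 call in L3.6pl in 5 cases, with adjusted p between 0.0529 and 0.149: FG hypoxia replicate 1, L3.6pl hypoxia replicates 1 and 2, and L3.6pl normoxia replicates 2 and 3. The log2 fold change stayed between 1.07 and 1.54 over all 12 such fits. Without the 3 arrays that stand apart, CDH1 was at 1.76 in L3.6pl (adjusted p = 0.000583) and at 0.83 in FG (adjusted p = 0.0108), so that it was called in both lines. The second CDH1 probe set, 201130_s_at, had 7.35, 7.47 and 5.45 in L3.6pl hypoxia, against 6.02, 5.23 and 5.30 in L3.6pl normoxia. It had 6.93, 7.42 and 6.53 in FG hypoxia, against 6.10, 6.27 and 6.13 in FG normoxia. It was higher on every FG hypoxia array than on any FG normoxia array, and L3.6pl hypoxia replicate 3 lay within the L3.6pl normoxia range. Its log2 fold changes of 1.24 ± 0.466 in L3.6pl and 0.80 ± 0.466 in FG had the same sign and did not pass (adjusted p = 0.158 and 0.340, limma on all probe sets singly).

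CDH3 encodes P-cadherin, a classical cadherin of basal epithelial cells, and its gene neighbours CDH1 among protein-coding genes. Its only probe set, 203256_at, had 10.05, 10.08 and 10.06 in L3.6pl hypoxia, against 10.07, 9.43 and 9.52 in L3.6pl normoxia. In FG it had 9.71, 9.88 and 9.83 in hypoxia, against 10.17, 9.55 and 9.29 in normoxia. Normoxia replicate 1 lay within the hypoxia range in L3.6pl and above it in FG, and the other 2 normoxia arrays of each line were lower than all of its hypoxia arrays. The difference was 0.39 ± 0.216 in L3.6pl (adjusted p = 0.340) and 0.14 ± 0.216 in FG (adjusted p = 0.793) with limma, and neither passed. Without the 3 arrays that stand apart, CDH3 was called in both lines, at 0.60 in L3.6pl (adjusted p = 0.00835) and 0.39 in FG (adjusted p = 0.0391).

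VIM, the intermediate filament protein of mesenchymal cells, was high in both lines. Probe set 201426_s_at had 12.71, 12.89 and 12.60 in L3.6pl hypoxia, against 12.72, 12.37 and 12.13 in L3.6pl normoxia. In FG it had 11.76, 11.75 and 12.25 in hypoxia, against 12.21, 11.34 and 11.31 in normoxia. All L3.6pl hypoxia arrays were above all FG hypoxia arrays, and in normoxia FG replicate 1 overlapped the L3.6pl range. The hypoxia differences of 0.33 ± 0.246 in L3.6pl (adjusted p = 0.518) and 0.30 ± 0.246 in FG (adjusted p = 0.550) did not pass. With the 3 arrays that stand apart left out, VIM was called in FG hypoxia at 0.59 (adjusted p = 0.0331).

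Between the lines, VIM was 1.76-fold higher in L3.6pl than in FG in hypoxia (0.82 ± 0.246, limma adjusted p = 0.0449). In normoxia the difference was 0.79 ± 0.246 and did not pass (adjusted p = 0.0711). The call in hypoxia was lost in 8 of the 12 fits that leave out an array, with adjusted p between 0.0506 and 0.148: FG hypoxia replicates 1 and 2, FG normoxia replicate 2, every L3.6pl hypoxia array, and L3.6pl normoxia replicates 2 and 3. The value stayed between 0.73 and 0.98 over all 12 such fits. Without FG normoxia replicate 1 alone, VIM in normoxia was at 1.08 and was called (adjusted p = 0.00623), and without the 3 arrays that stand apart it was at 0.92 and was called (adjusted p = 0.00958). With replicate number as a block within each oxygen condition, a setting added after seeing the data, VIM was called in normoxia too (adjusted p = 0.00805). With the mean of both probe sets the difference in hypoxia was 0.47 and was not called (adjusted p = 0.0719). The second probe set, 1555938_x_at, of a type that can hybridise to other transcripts, ran from 3.00 to 3.52 over all arrays and lay under the background level.

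SNAI2, the Slug repressor of CDH1, was higher in FG hypoxia. Probe set 213139_at had 10.30, 10.32 and 10.43 in FG hypoxia, against 10.01, 8.82 and 8.79 in FG normoxia. In L3.6pl it had 9.84, 10.54 and 10.06 in hypoxia, against 10.01, 9.40 and 9.24 in normoxia. The FG groups did not overlap although FG normoxia replicate 1 lay more than 1 log2 unit above its group's other arrays, and L3.6pl normoxia replicate 1 lay within the L3.6pl hypoxia range. SNAI2 rose in FG hypoxia by 1.14 ± 0.319, a 2.21-fold change (limma adjusted p = 0.0439), and was at 0.60 ± 0.319 in L3.6pl (adjusted p = 0.324). Leaving out 1 array ended the FG call in 8 cases (adjusted p 0.0519 to 0.151), namely any FG hypoxia array, FG normoxia replicates 2 and 3, L3.6pl hypoxia replicate 1 and L3.6pl normoxia replicates 2 and 3. The value stayed between 0.94 and 1.55. Without the 3 arrays that stand apart, SNAI2 was at 1.55 in FG (adjusted p = 0.00066) and at 0.87 in L3.6pl (adjusted p = 0.0131).

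FOXC2 was called in 4 of the 5 comparisons. Probe set 239058_at had 6.68, 7.21 and 6.75 in L3.6pl hypoxia, against 6.07, 6.20 and 6.27 in L3.6pl normoxia. In FG it had 8.34, 8.26 and 8.18 in hypoxia, against 7.64, 7.20 and 7.71 in normoxia. Hypoxia arrays were above all normoxia arrays within each line, and L3.6pl arrays were below all FG arrays within each oxygen condition. FOXC2 rose in hypoxia 1.62-fold in L3.6pl (0.70 ± 0.163, adjusted p = 0.0280) and 1.67-fold in FG (0.74 ± 0.163, adjusted p = 0.0153). It was lower in L3.6pl than in FG, at -1.38 ± 0.163 in hypoxia (adjusted p = 0.000255) and -1.34 ± 0.163 in normoxia (adjusted p = 0.000432).

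The line differences of FOXC2 were called in each of the 12 fits that leave out an array, at -1.55 to -1.29 in hypoxia and -1.50 to -1.24 in normoxia. The hypoxia call in L3.6pl was lost in 4 of these fits, without L3.6pl hypoxia replicate 2 or any L3.6pl normoxia array (adjusted p 0.0652 to 0.102). In FG it ended without FG hypoxia replicate 1 or 2 or FG normoxia replicate 2 (adjusted p 0.0539 to 0.0579). The second FOXC2 probe set, 214520_at, is the one whose annotation lists the RefSeq transcript. It ran from 3.93 to 4.67 over the 12 arrays, under the background level, and was called in none of the 5 comparisons when all probe sets were tested singly. With the mean of both probe sets, the FOXC2 change in hypoxia was 0.43 in L3.6pl and 0.39 in FG and the line difference -0.79 in hypoxia and -0.83 in normoxia. The FOXC2 values therefore rest on 239058_at, and what else that probe set may measure was not tested.

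TWIST1 separated the lines in hypoxia. Probe set 213943_at had 7.35, 7.79 and 7.57 in L3.6pl hypoxia, against 7.17, 6.78 and 7.04 in L3.6pl normoxia. In FG it had 6.53, 6.54 and 7.03 in hypoxia, against 6.76, 6.33 and 6.84 in normoxia. The L3.6pl hypoxia arrays were above the arrays of the other 3 groups, and the FG groups overlapped. TWIST1 was 1.83-fold higher in L3.6pl than in FG in hypoxia (0.87 ± 0.187, limma adjusted p = 0.00906), and this was called in each of the 12 fits that leave out an array, at 0.76 to 1.03. In normoxia the line difference was 0.35 ± 0.187 (adjusted p = 0.315). Hypoxia against normoxia gave 0.57 ± 0.187 in L3.6pl (adjusted p = 0.0996) and 0.057 ± 0.187 in FG (adjusted p = 0.911), and neither passed. Over all settings, the lowest limma adjusted p of TWIST1 was 0.0151 for hypoxia in L3.6pl and 0.0228 between the lines in normoxia. These are the lowest values of 24 and 25 settings, which called up to 5192 and up to 6623 of all genes in these comparisons. The main fit called neither difference.

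ZEB1, a zinc finger repressor of CDH1, gave no call, and its probe sets did not move alike. Probe set 212764_at had 6.23, 6.73 and 6.55 in L3.6pl hypoxia, against 6.82, 6.16 and 6.40 in L3.6pl normoxia. In FG it had 5.66, 5.96 and 6.56 in hypoxia, against 7.30, 6.39 and 6.41 in normoxia. The groups of each line overlapped, with FG normoxia replicate 1 the highest of the 12 arrays and FG hypoxia replicate 1 under the background level. The differences were 0.042 ± 0.294 in L3.6pl (adjusted p = 0.959) and -0.64 ± 0.294 in FG (adjusted p = 0.220). Probe set 212758_s_at had 6.32, 6.23 and 6.18 in FG hypoxia, against 5.60, 6.07 and 5.78 in FG normoxia. Its log2 fold change in FG was 0.43 ± 0.254 (adjusted p = 0.352), opposite in sign to that of 212764_at. The other 2 ZEB1 probe sets lay under the background level.

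**Figure D2:**
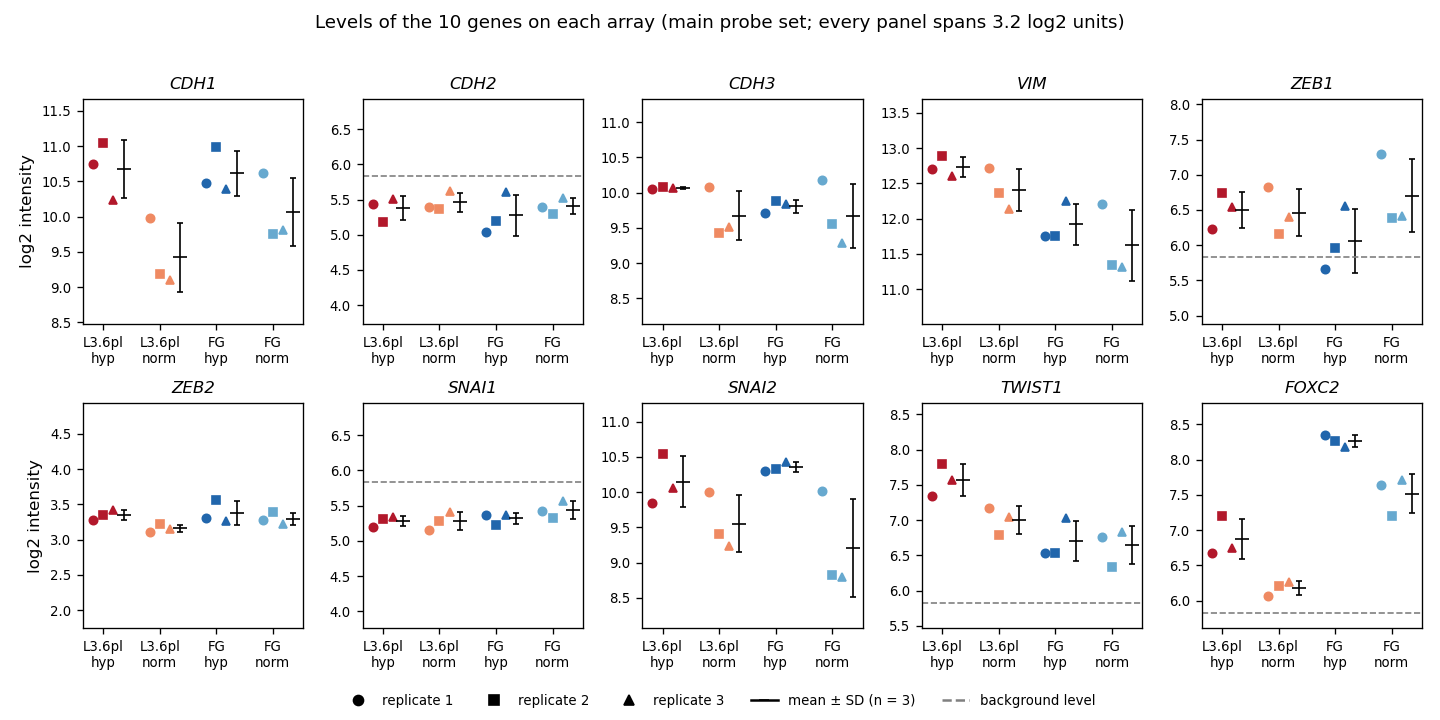
Log2 intensity (vertical axis) of the main probe set of each of the 10 genes on the 12 arrays, with groups from left to right L3.6pl hypoxia, L3.6pl normoxia, FG hypoxia and FG normoxia; points are arrays, bars are group means ± SD (n = 3) and the dashed line is the background level of 5.83. FOXC2 arrays of L3.6pl lie below those of FG in both oxygen conditions, CDH2 and SNAI1 lie under the background line, and the whole ZEB2 panel is below it.

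The order of the group means differed between the genes. For CDH1 it ran 10.68 ± 0.41 in L3.6pl hypoxia, 10.61 ± 0.32 in FG hypoxia, 10.06 ± 0.49 in FG normoxia and 9.42 ± 0.49 in L3.6pl normoxia, and no neighbours in that order were called apart by limma without a block. With the block within oxygen condition, CDH1 was lower in L3.6pl normoxia than in FG normoxia (-0.64, adjusted p = 0.00238). For SNAI2 it ran 10.35 ± 0.07 in FG hypoxia, 10.15 ± 0.36 in L3.6pl hypoxia, 9.55 ± 0.40 in L3.6pl normoxia and 9.21 ± 0.69 in FG normoxia. No neighbours were called apart there either without a block. With the block, the lines were not called apart in either oxygen condition, and L3.6pl hypoxia against L3.6pl normoxia was not tested. Without the arrays that stand apart, that pair was called at 0.87 (limma adjusted p = 0.0131). Over 25 settings, which called up to 6623 of all genes, the lowest limma adjusted p of SNAI2 between the lines in normoxia was 0.0262. In the main fit it was 0.633. For VIM the order was 12.73 ± 0.15 in L3.6pl hypoxia, 12.41 ± 0.30 in L3.6pl normoxia, 11.92 ± 0.29 in FG hypoxia and 11.62 ± 0.51 in FG normoxia. For FOXC2 the order was 8.26 ± 0.08 in FG hypoxia, 7.52 ± 0.28 in FG normoxia, 6.88 ± 0.29 in L3.6pl hypoxia and 6.18 ± 0.10 in L3.6pl normoxia, and the FG normoxia and L3.6pl hypoxia arrays overlapped. TWIST1 averaged 7.57 ± 0.22 in L3.6pl hypoxia, 7.00 ± 0.20 in L3.6pl normoxia, 6.70 ± 0.29 in FG hypoxia and 6.64 ± 0.27 in FG normoxia.

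As a share of each gene's sum of squares over the 12 arrays, cell line took 74.4% for FOXC2, 61.7% for VIM and 53.3% for TWIST1. Oxygen took 55.9% for SNAI2 and 53.6% for CDH1, against 20.9% for FOXC2, 14.1% for TWIST1 and 9.42% for VIM. For CDH3 and ZEB1 most of it lay within groups, at 68.6% and 66.9%. These shares describe the arrays and carry no test.

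The calls among the 10 genes were counted beside those over all genes. In L3.6pl, hypoxia gave 2 called higher, CDH1 and FOXC2, and none lower, where 6.86% of all genes were called, 3.89% higher and 2.97% lower. The groups did not overlap for 4 of the 10 (CDH1, FOXC2, TWIST1 and ZEB2), against 24.4% of all genes. In FG, hypoxia gave 2 called higher, SNAI2 and FOXC2, and none lower, where 10.7% of all genes were called, 4.24% higher and 6.47% lower. Of the 10, 2 did not overlap (SNAI2 and FOXC2), against 27.9% of all genes. The median log2 fold change of the 10 was 0.36 in L3.6pl, where that of all genes was -0.02, and 0.11 in FG, where it was -0.03. With 3 arrays on each side, the smallest p of an exact test is 0.1, so calls come from the model over all genes. Without the 3 arrays that stand apart, 4 of the 10 were called in L3.6pl (CDH1, CDH3, SNAI2 and FOXC2) and 5 in FG (CDH1, CDH3, VIM, SNAI2 and FOXC2), where 21.1% of all genes were called in L3.6pl and 19.6% in FG.

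Between the lines, 3 of the 10 were called in hypoxia, VIM and TWIST1 higher and FOXC2 lower in L3.6pl, where 16.7% of all genes were called, 10% higher and 6.72% lower. The groups did not overlap for these 3 and CDH3, against 32.1% of all genes. In normoxia FOXC2 was the single call, lower in L3.6pl, where 10.7% of all genes were called, 5.16% higher and 5.54% lower. FOXC2 and ZEB2 did not overlap, against 28.1% of all genes. The median log2 fold change was 0.08 in hypoxia and -0.07 in normoxia, and that of all genes was 0.02 in both. CDH1 was at 0.066 ± 0.313 in hypoxia (adjusted p = 0.931, 95% interval -0.62 to 0.76) and at -0.64 ± 0.313 in normoxia (adjusted p = 0.267). With replicate number as a block within oxygen condition, the CDH1 difference in normoxia was called, lower in L3.6pl (-0.64, adjusted p = 0.00238). SNAI2 was at -0.20 ± 0.319 in hypoxia (adjusted p = 0.757) and at 0.34 ± 0.319 in normoxia (adjusted p = 0.633). The hypoxia comparisons and the line comparisons use the same 12 arrays and are not independent of each other.

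**Figure D3:**
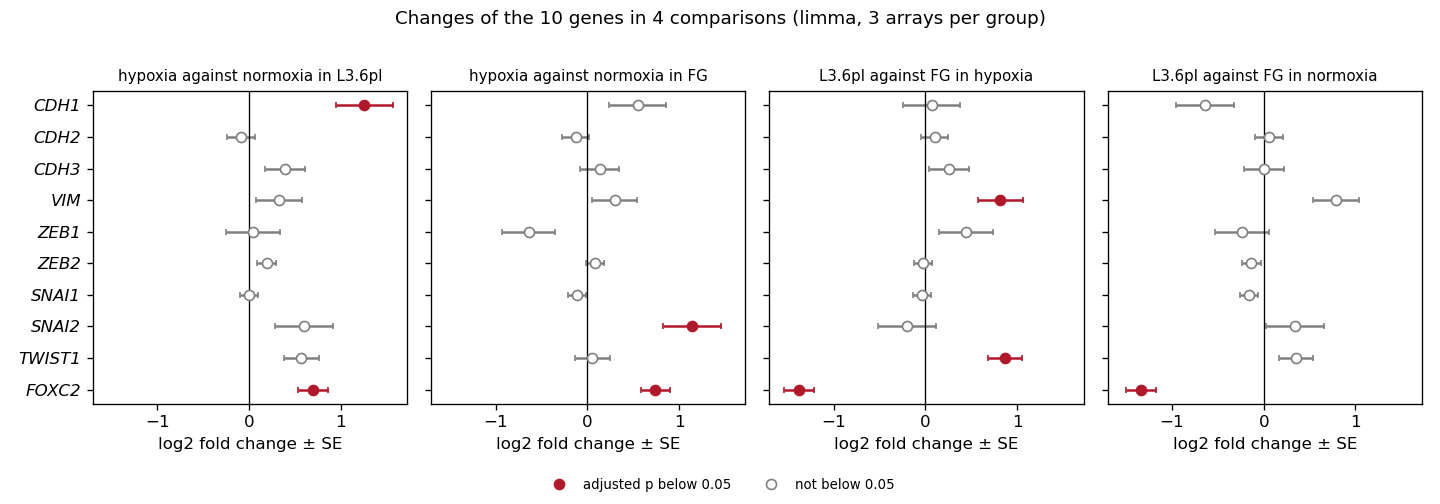
Log2 fold change of each of the 10 genes (horizontal axis) with limma's standard error in the 4 comparisons of 2 groups, 3 arrays per group; filled points have an adjusted p below 0.05. CDH1 and FOXC2 are called in L3.6pl hypoxia, SNAI2 and FOXC2 in FG hypoxia, VIM, TWIST1 and FOXC2 between the lines in hypoxia, and FOXC2 between the lines in normoxia.

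Whether the hypoxia change differed between the lines was tested by the interaction, the change in L3.6pl minus that in FG. None of the 10 was called, where 0.0253% of all genes were called (5 genes). An unadjusted limma p below 0.05 was reached by 0 of the 10, against 1427 of all 19775 genes. With array quality weights the count called among the 10 was also 0. The estimates were 0.71 ± 0.442 for CDH1 (adjusted p = 0.826, 95% interval -0.27 to 1.68), 0.51 ± 0.264 for TWIST1 (adjusted p = 0.754, 95% interval -0.07 to 1.10) and -0.55 ± 0.451 for SNAI2 (adjusted p = 0.890, 95% interval -1.54 to 0.45). SNAI2 was called in FG and not in L3.6pl, and a difference in its hypoxia change between the lines was not shown with the block within oxygen condition (adjusted p = 0.239) or without it. For FOXC2 the estimate was -0.044 ± 0.231 (adjusted p = 0.985, 95% interval -0.55 to 0.46). For CDH1 the call depended on the block: with the block within oxygen condition it was the 1 gene of the 10 called (0.71, adjusted p = 0.0376), where 3.55% of all genes were called.

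**Figure D4:**
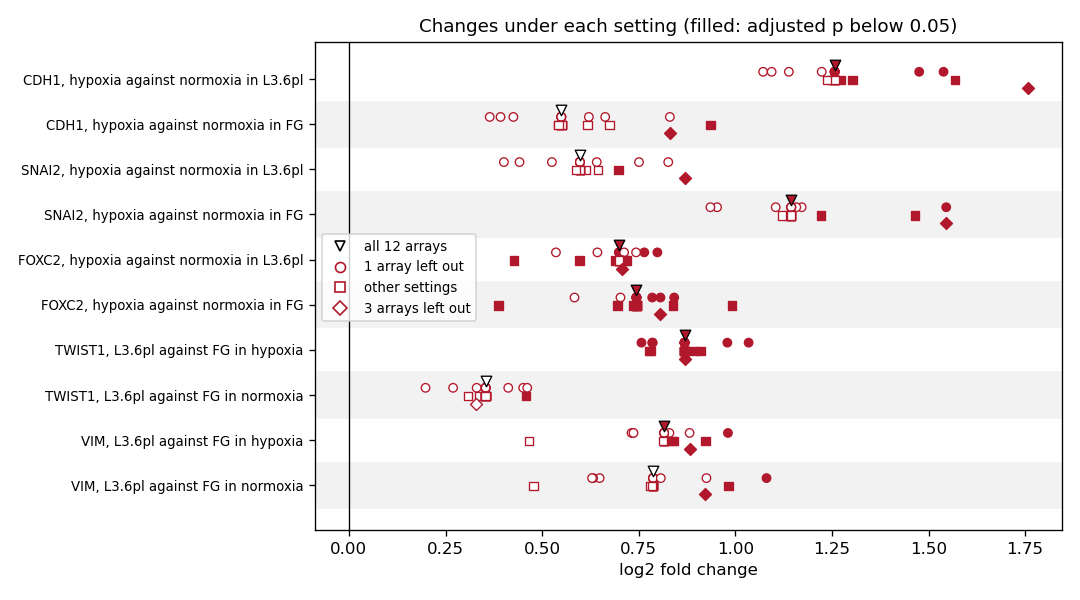
Log2 fold changes of the genes called in a comparison, under each setting of the analysis and without each array in turn (horizontal axis), with the other line or oxygen condition beside it; filled symbols have an adjusted p below 0.05. CDH1 in L3.6pl hypoxia lies between 1.07 and 1.54 and SNAI2 in FG hypoxia between 0.94 and 1.55 when single arrays are left out.

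The counts called on the gene lists that follow stand beside these shares of all genes. In hypoxia 3.89% were called higher and 2.97% lower in L3.6pl, and 4.24% and 6.47% in FG. Between the lines, 10% were called higher and 6.72% lower in L3.6pl in hypoxia, and 5.16% and 5.54% in normoxia. Genes that work with the cadherins were examined from a list of 14 measured catenins, nectins and linkers. In L3.6pl hypoxia 3 rose and 0 fell, with a median log2 fold change of 0.12: NECTIN4, a nectin of epithelial junctions, at 1.29 ± 0.128, the actin linker LIMA1 at 0.90 ± 0.165 and alpha-catenin CTNNA1 at 0.40 ± 0.105 (adjusted p = 0.000481, 0.00961 and 0.0480). In FG hypoxia NECTIN4 rose (0.54 ± 0.128, adjusted p = 0.0213), and ADAM10, a protease that cleaves E-cadherin, fell (-0.79 ± 0.208, adjusted p = 0.0357). Plakoglobin (JUP) did not pass at 0.57 ± 0.297 in either line. Between the lines 4 were higher in L3.6pl in hypoxia and 2 in normoxia. LIMA1 was among them at 1.26 ± 0.165 in hypoxia and 0.83 ± 0.165 in normoxia. Of 13 other cadherins, 3 were above background in some group. CDH11, a cadherin of mesenchymal cells, fell in L3.6pl hypoxia (-0.51 ± 0.134, adjusted p = 0.0471) and was higher in L3.6pl than in FG in both conditions (0.76 ± 0.134 in hypoxia and 0.94 ± 0.134 in normoxia). Its mean of 5.58 in FG hypoxia was under the background level, and against that level CDH11 was at least 1.43-fold higher in L3.6pl hypoxia. CDH19 was called lower in L3.6pl in hypoxia but lay under the background level in all 4 groups, so no difference is given for it. None of the 13 was called by limma in FG hypoxia, where 1 had an unadjusted p below 0.05, against 4604 of all 19775 genes.

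Of 19 epithelial regulators, 2 rose in L3.6pl hypoxia, the epithelial transcription factors ELF3 (1.28 ± 0.225, adjusted p = 0.00772) and GRHL1 (2.27 ± 0.547, adjusted p = 0.0322). In FG hypoxia 3 rose: OVOL1, a zinc finger repressor of mesenchymal genes (2.35 ± 0.199, adjusted p = 0.000135), KLF5 (1.21 ± 0.264) and the claudin CLDN4 (1.04 ± 0.248). None of the 19 fell in either line. Between the lines in hypoxia 3 were higher and 3 lower in L3.6pl, with MARVELD3, a tight junction protein, at 1.62 ± 0.129 and OVOL1 at -2.40 ± 0.199. In normoxia 1 was higher, MARVELD3 at 1.56 ± 0.129, and 3 were lower, among them the protease inhibitor SPINT2 at -0.87 ± 0.144. MARVELD3 averaged 6.97 in L3.6pl hypoxia and 7.09 in L3.6pl normoxia, against 5.35 in FG hypoxia and 5.53 in FG normoxia. The FG means were under the background level, and against that level MARVELD3 was at least 2.21-fold higher in L3.6pl in hypoxia and at least 2.40-fold higher in normoxia.

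Of 19 further transcription factors of the transition and their inhibitors, 0 were called by limma in L3.6pl hypoxia. There 5 of the 19 had an unadjusted p below 0.05, against 4205 of all 19775 genes. In FG hypoxia 4 of the 19 rose and 1 fell. The rises included the helix-loop-helix inhibitors ID3 (3.15 ± 0.370, adjusted p = 0.000648) and ID2 (2.32 ± 0.284, adjusted p = 0.000812) and the factor SOX9 (1.81 ± 0.365, adjusted p = 0.0104). In L3.6pl, ID2 was at 0.70 ± 0.284 and did not pass (adjusted p = 0.184). In hypoxia 1 was higher and 4 lower in L3.6pl than in FG, among them ID3 (-2.11 ± 0.370) and SOX4 (-1.82 ± 0.222), and in normoxia 2 were higher and 2 lower. TCF4, the E protein partner of TWIST1, was lower in L3.6pl in both conditions (-1.09 ± 0.240 in hypoxia and -1.44 ± 0.240 in normoxia). Of 22 genes of transforming growth factor beta and other inducers, 0 were called by limma in L3.6pl hypoxia. There 7 of the 22 had an unadjusted p below 0.05, against the same 4205 of all genes. In FG hypoxia 5 of the 22 rose and 1 fell. SMAD7, an inhibitor of the pathway, rose by 2.13 ± 0.198 in FG (adjusted p = 0.000207), and the ligand TGFB2 rose by 1.20 ± 0.283. The ligand TGFB1 was higher in L3.6pl (2.10 ± 0.211 in hypoxia and 1.57 ± 0.211 in normoxia) and SMAD7 was lower (-3.17 ± 0.198 and -1.22 ± 0.198), among 3 higher and 3 lower in hypoxia and 2 higher and 3 lower in normoxia. SMAD7 averaged 4.91 in L3.6pl hypoxia and 4.73 in L3.6pl normoxia, against 8.08 in FG hypoxia and 5.95 in FG normoxia. The L3.6pl means were under the background level, which makes SMAD7 at least 4.76-fold lower in L3.6pl in hypoxia and at least 1.08-fold lower in normoxia.

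Of 17 co-repressors and chromatin enzymes that work with Snail and ZEB proteins, HDAC3 rose in L3.6pl hypoxia (0.56 ± 0.117, adjusted p = 0.0169) and 0 fell. In FG hypoxia 0 rose and 3 fell: HDAC1 (-0.71 ± 0.167), the methyltransferase SUV39H1 (-0.82 ± 0.223) and the Polycomb subunit SUZ12 (-0.55 ± 0.123). CTBP1, a co-repressor bound by ZEB proteins, was lower in L3.6pl than in FG in hypoxia (-0.70 ± 0.091) and in normoxia (-0.49 ± 0.091), among 3 higher and 3 lower in hypoxia and 2 higher and 2 lower in normoxia. Of 21 mesenchymal effectors, 6 rose in L3.6pl hypoxia and 7 in FG hypoxia, where 3.89% and 4.24% of all genes were called higher. None fell, and the median log2 fold changes were 0.36 and 0.35, while VIM itself was called in neither. The tropomyosin TPM2 rose in both lines, by 1.14 ± 0.187 in L3.6pl and 0.92 ± 0.187 in FG. Between the lines 4 were higher and 5 lower in L3.6pl in hypoxia and 1 higher and 5 lower in normoxia, among them TAGLN, an actin-binding protein, at -3.56 ± 0.646 in normoxia and fibronectin (FN1) at -3.05 ± 0.310 in hypoxia. TAGLN averaged 5.45 in L3.6pl normoxia, against 9.01 in FG normoxia, and FN1 averaged 5.28 in L3.6pl hypoxia, against 8.33 in FG hypoxia. Both L3.6pl means were under the background level, so TAGLN was at least 9.06-fold and FN1 at least 5.66-fold lower in L3.6pl. VIM is no member of this list. Of 14 intermediate filament partners, the neurofilament NEFL rose in both lines (0.69 ± 0.140 in L3.6pl and 0.58 ± 0.140 in FG), and synemin (SYNM) fell in L3.6pl hypoxia (-0.84 ± 0.139). KRT19 was higher (0.90 ± 0.116) and KRT8 lower (-0.84 ± 0.187) in L3.6pl in hypoxia, where 1 of the 14 was higher and 4 were lower. In normoxia 1 was higher, KRT19, and 1 lower, NEFL.

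None of the genes on these 8 lists was called in the interaction. There 7 of the 21 mesenchymal effectors had an unadjusted limma p below 0.05, and 0 to 3 genes of each other list. Of all 19775 genes, 1427 did. With the block within oxygen condition, 9 were called: ADAM10, NECTIN4 and ITGA5, the fibronectin receptor's alpha chain, with a higher change in L3.6pl, and OVOL1, ID2, ID3, SMAD7, TPM1 and SYNM with a lower one. These 9 are named after their values were seen, and 3.55% of all genes were called with that block. ITGA5 was the single call without the 3 arrays that stand apart, where 0.0961% of all genes were called. In the line comparisons that block called more genes of most lists. In hypoxia it called 5 higher and 1 lower in L3.6pl among the cadherin partners, 6 and 5 among the epithelial regulators, 2 and 5 among the further transcription factors, 6 and 3 among the co-repressors, 3 and 5 among the inducers, 6 and 8 among the mesenchymal effectors and 2 and 5 among the filament partners, where 30% of all genes were called. In normoxia it called 4 higher and 1 lower among the cadherin partners, 2 and 6 among the epithelial regulators, 3 and 3 among the further transcription factors, 4 and 2 among the co-repressors, 2 and 4 among the inducers, 2 and 5 among the effectors and 1 and 3 among the filament partners, where 23.1% of all genes were called.

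Hypoxia also called more genes of most lists without the 3 arrays that stand apart. Of all genes, 21.1% were then called in L3.6pl and 19.6% in FG. In L3.6pl 4 of the cadherin partners rose and 0 fell, 5 and 0 of the epithelial regulators, 3 and 0 of the further transcription factors, 2 and 5 of the co-repressors, 5 and 2 of the inducers, 8 and 0 of the mesenchymal effectors and 1 and 2 of the filament partners. In FG the counts were 4 risen and 2 fallen partners, 5 and 1 regulators, 5 and 1 factors, 1 and 6 co-repressors, 8 and 3 inducers, 8 and 0 effectors and 1 and 1 filament partners. JUP was then called higher in hypoxia in both lines. Between the lines in hypoxia, where 22.3% of all genes were called, 4 epithelial regulators were higher and 4 lower in L3.6pl. The counts were 6 and 3 for the co-repressors and 4 and 5 for the inducers. They were 4 and 6 for the mesenchymal effectors and 2 and 4 for the filament partners. In normoxia, where 13.1% of all genes were called, they were 3 and 5 for the epithelial regulators and 3 and 2 for the further transcription factors. The co-repressors had 0 and 2, the mesenchymal effectors 0 and 5 and the filament partners 1 and 3.

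The genes whose centred values lay closest to those of CDH1, VIM, SNAI2 and FOXC2 over the 12 arrays were found by root mean square difference. For CDH1 they were PARP6 at 0.216, BHLHE40, a hypoxia-induced repressor, at 0.223 and TANC2 at 0.230 log2 units. For VIM they were PHLPP1 at 0.141, TRIP6 at 0.173 and ZBTB4 at 0.174. For SNAI2 they were LAMB3, a laminin chain, at 0.224, RAP1GAP2 at 0.252 and JUP at 0.252. For FOXC2 they were GPRIN2 at 0.215, MPZL3 at 0.251 and the metalloprotease ADAM9 at 0.255. BHLHE40 averaged 11.50 in L3.6pl hypoxia and 10.48 in L3.6pl normoxia, against 11.81 in FG hypoxia and 11.01 in FG normoxia. Each gene was searched among 19775, and arrays of a group share their culture condition, so these are descriptions of likeness.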

How the data were processed

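RNA of 2 cell lines in 2 oxygen conditions was measured on 12 arrays of 54675 probe sets. The deposited values are intensities on a linear scale made by the authors with the RMA method, as the submitters' processing notes name it without a version. Array medians ran from 39.1 to 41.4, so log2 was taken with no further normalization. The number of arrays limits the precision, and the values carry no detection call.

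Genes were assigned from the platform annotation, with symbols updated through the GRCh38.p14 gene table. Leaving aside 62 control probe sets, 41091 had exactly 1 gene, 1801 several and 11721 none. The probe set of highest mean stood for each of the 19775 genes. A single model with a mean per group took all 12 arrays (limma 3.58.1, R 4.3.3, eBayes moderation with 8 residual and 2.72 prior degrees of freedom) and was checked on simulated data. Adjusted p values are Benjamini-Hochberg over all genes, called below 0.05.

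The 10 genes, the further lists, the background genes and the 3 arrays left out together were chosen with earlier results of these data known. All 10 genes are named. From each list up to 3 called genes with the smallest adjusted p per comparison and up to 2 uncalled genes with the highest mean could be named, and for likeness the 3 nearest genes of members that span at least 1 log2 unit. Other cadherins, blood and endothelial, epithelial and fibroblast markers and hypoxia-inducible factor targets were lists of the same kind.

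Replicate numbers come from the labels. Deviations of same-numbered arrays from their group means correlated at 0.358 to 0.462 between the lines in hypoxia and at 0.528 to 0.735 in normoxia, so the numbers were taken to pair arrays of the lines within an oxygen condition. Between hypoxia and normoxia the correlations ran from -0.217 to 0.413, and no pairing was taken. If hypoxia and normoxia arrays were handled as separate sets, that could not be told apart from oxygen, and it was not tested. The alternatives were cyclic loess, median centring, a filter on dim genes, all probe sets of a gene averaged or each singly, a robust fit with an intensity trend, replicate blocks, array quality weights, a fit on 2 groups, each array left out, an adjusted p below 0.01 and a pseudocount of 16.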

Additional observations from a re-analysis of the deposited data

Results flagged for a closer look

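CDH1 was flagged in a test of whether its hypoxia change differed between the lines. With replicate number as a block within each oxygen condition, a setting chosen after seeing the data, the hypoxia change of CDH1 in L3.6pl minus that in FG was 0.71 on the log2 scale (limma, adjusted p = 0.0376). That block called 3.55% of all genes in this test. Without the block the same difference of 0.71 ± 0.442 was not called (adjusted p = 0.826). In this balanced design the block cannot change an estimate, so the value of 0.71, higher in L3.6pl, is the same with and without it.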

How the results depend on the processing

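The 3 arrays of a group, and RMA values without detection calls, limit these results. Of the log2 fold changes of the 10 genes under all settings, 1094 kept their direction and their side of the threshold, 19 gained a call, 43 lost one and 49 reversed, none of which was a called change. CDH2, ZEB2 and SNAI1 have no value under the filter on dim genes, and the fit on 2 groups gives no interaction. The causes of the changes below were not tested.

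In L3.6pl hypoxia 2 of the 10 genes and 1357 of all genes were called. The counts were 5 and 5192 with array quality weights, 4 and 4179 without the 3 arrays that stand apart, 0 and 475 at an adjusted p below 0.01, and 0 and 797 in a fit on the 2 groups. With the mean of all probe sets and with a pseudocount of 16, CDH1 was no longer called and FOXC2 was. The replicate block gave 2130 genes in all. In FG hypoxia 2 and 2117 were called. The counts were 4 and 5729 with weights, 5 and 3871 without the 3 arrays, and 0 and 860 at 0.01. In the fit on the 2 groups and with the pseudocount, SNAI2 was no longer called and FOXC2 was.

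Between the lines in hypoxia 3 and 3310 were called, and in normoxia 1 and 2116. At 0.01 the totals were 1718 in hypoxia and 1025 in normoxia. In normoxia the counts were 5 and 6623 with weights, and 2 and 2581 without the 3 arrays. With the replicate block within oxygen condition, added after seeing the data, 5935 genes were called in hypoxia, and in normoxia 3 of the 10 and 4576 in all, CDH1 at -0.64 (adjusted p = 0.00238) among them. For the interaction 0 and 5 were called; that block gave 1 and 703, weights 421 genes, the plain replicate block and the mean of probe sets 13 each, the 3 arrays left out 19, cyclic loess 12, and the dim filter, single probe sets, trend and pseudocount 10 each, against 2 at 0.01. The plain replicate block changed no call among the 10. Near background in all groups were 3 of the 10, or 1 with the 75th percentile. Below the mean of the non-human control probe sets, which was not shown to measure background, were 4.

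Leaving out single arrays gave 0 to 2 of the 10 and 508 to 2436 genes in L3.6pl hypoxia, 0 to 2 and 1029 to 2899 in FG hypoxia, 2142 to 3813 genes between the lines in hypoxia, 1 to 2 and 1254 to 2626 in normoxia, and 2 to 23 genes for the interaction.

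Besides the changes with single arrays, calls of the 10 ended as follows. CDH1 in L3.6pl hypoxia had adjusted p = 0.0626 with the mean of probe sets, 0.0688 in the fit on 2 groups and 0.0502 with the pseudocount. SNAI2 in FG hypoxia had 0.0874 and FOXC2 in L3.6pl hypoxia 0.0642 in the fit on 2 groups, and SNAI2 had 0.0578 with the pseudocount. VIM between the lines in hypoxia had 0.0638 with cyclic loess, 0.0530 with single probe sets, 0.0562 with the pseudocount and 0.0719 with the mean of probe sets, where its value was 0.47.

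Uncalled changes reversed as follows. With the mean of probe sets, CDH2 was at 0.040 in FG hypoxia, -0.24 between the lines in hypoxia, -0.091 in normoxia and -0.15 in the interaction, CDH1 at -0.070 between the lines in hypoxia, and VIM at -0.012 and FOXC2 at 0.040 in the interaction. With weights, SNAI1 was at -0.036 in L3.6pl hypoxia, CDH3 at -0.040 between the lines in normoxia (-0.014 with cyclic loess) and VIM at -0.059 in the interaction. Without the 3 arrays, SNAI1 was at -0.089 in L3.6pl hypoxia, and CDH2 at -0.060 and VIM at -0.041 in the interaction.

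Without single arrays, values that crossed 0 in L3.6pl hypoxia were CDH2 (-0.15 to 0.011), ZEB1 (-0.11 to 0.22) and SNAI1 (-0.061 to 0.067), and in FG hypoxia CDH3 (-0.055 to 0.39), ZEB2 (-0.014 to 0.14) and TWIST1 (-0.11 to 0.15). Between the lines in hypoxia they were CDH1 (-0.12 to 0.28), CDH2 (-0.019 to 0.26), ZEB2 (-0.084 to 0.072) and SNAI1 (-0.085 to 0.0031), and in normoxia CDH2 (-0.022 to 0.11), CDH3 (-0.20 to 0.25) and ZEB1 (-0.42 to 0.061). In the interaction they were CDH2 (-0.077 to 0.20), VIM (-0.26 to 0.19) and FOXC2 (-0.21 to 0.12).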
